A study of Homo sapiens with 6 samples.

Results

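The genes described here encode the core machinery of endoplasmic reticulum (ER)-associated degradation (ERAD), which were measured by RNA-seq in NCI-H660, an established human line of neuroendocrine prostate cancer (NEPC) cells. They were chosen by symbol as *HERPUD1*, *SEL1L*, *SYVN1*, *EDEM1*, *EDEM2*, *EDEM3*, *DERL1*, *DERL2*, *OS9* and *SELENOS*, and all 10 were among the 17177 genes of the deposited table. The cells, labelled wild type (WT), were treated with pyrvinium pamoate (PP), an anthelmintic drug that the study tested as an inhibitor of the RNA-binding protein ELAVL3, or with PBS as the control. There were 3 libraries per treatment, each labelled day 3, and the labels give no dose. All libraries come from 1 cell line. The study describes the samples as independent in a legend and as duplicates in its methods, and the labels do not say whether they come from separate cultures, so the p-values measure the spread between these libraries.

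The values are FPKM, fragments scaled by the length of the gene and by a total of fragments for the library. Levels compared between genes also depend on the gene lengths used and on which fragments were counted. The sources differ on those steps, so such comparisons are less certain than those of 1 gene between libraries. Whole counts could be recovered from the steps of the FPKM values, and a library held between 29064253 and 32481171 of them. The totals used for scaling were proportional to these sums over the listed genes to within 0.0098%. FPKM is relative to the RNA of the library, so a change in all RNA per cell, or a change in which cells were alive to be collected, cannot be told apart from a change of 1 gene. Of 7 neuroendocrine markers, 6 had a mean FPKM of at least 1, and of these 4 were lower, 1 was higher and 1 did not pass the test with PP (adjusted p under 0.05, limma), where 72.5% of all tested genes passed in either direction. Markers of leukocytes, endothelium and fibroblasts summed to 5.46 to 5.69 FPKM with PBS and 5.55 to 5.86 with PP, and 2 of the 7 reached a mean of 1 (*CD68* and *COL1A1*). The part of the neuroendocrine markers in the results below was not tested.

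ERAD removes proteins that fail to fold in the ER. Enzymes of the EDEM family trim mannose from the sugar chain of a misfolded glycoprotein, the lectin OS9 binds the trimmed chain, and the ubiquitin ligase SYVN1 (also called HRD1), held by its cofactor SEL1L, marks the protein as it is moved back to the cytosol. HERPUD1 is a scaffold of this membrane complex, derlins (DERL1 and DERL2) help the protein across the membrane, and SELENOS helps recruit the ATPase p97 (VCP), which pulls it out for the proteasome. Many of these genes are known targets of the unfolded protein response, in which the sensors IRE1 (*ERN1*) and ATF6 detect misfolded protein and the factors XBP1 and ATF6 switch on ER genes.

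To ask how PP affected this machinery, its genes were compared between PP and PBS. *HERPUD1* rose the most, followed by *SEL1L*, *SELENOS* and *EDEM1*, with smaller rises of *EDEM3*, *SYVN1* and *DERL2*. *OS9* was slightly lower, and *DERL1* and *EDEM2* did not pass the test. All 10 members passed the filter of a mean FPKM of 1 and were tested. By limma, 7 of 10 members were higher with PP and 1 was lower (adjusted p under 0.05), against 38.1% higher, 34.4% lower and 72.5% in either direction of the 11726 genes tested. The median log2 fold change (of FPKM + 1, PP minus PBS) was 0.32 over the members and 0.02 over all tested genes. In 7 members every PP library lay above every PBS library and in 1 every PP library lay below, against 39.5% and 35.5% of all tested genes. The study's methods give a P threshold of 0.05 under RNA-sequencing and a stricter cutoff under bulk transcriptome analysis. The stricter one, called here the cutoff of the methods, is P under 0.001 (taken as unadjusted) and a log2 change of over 1 in either direction. With it, *HERPUD1* and *SEL1L* were higher and none was lower, against 2.24% and 2.93% of all tested genes. The count of 0 lower members at this cutoff held under the 13 alternatives run with limma, and 1 member, *OS9*, was lower at an unadjusted p under 0.05.

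**Figure D1:**
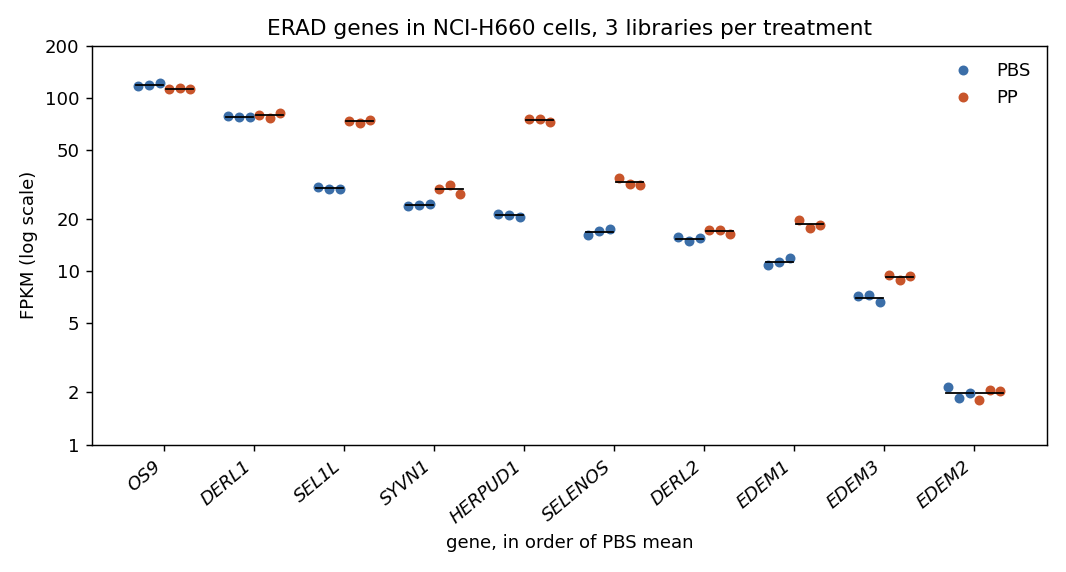
FPKM (log scale) of the 10 ERAD genes in each of the 3 PBS and 3 PP libraries of NCI-H660 cells; points are libraries and black lines are group means. *HERPUD1* and *SEL1L* stand at 72.1 to 75.5 FPKM with PP, close under *DERL1*, while the points of *DERL1* and *EDEM2* overlap between treatments.

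*HERPUD1*, the scaffold, had an FPKM of 21.3, 21.1 and 20.6 in PBS replicates 1 to 3 and of 75.3, 75.5 and 73.0 in PP replicates 1 to 3. The groups were far apart, with little spread inside each. Its mean went from 21.0 ± 0.361 to 74.6 ± 1.40 (SD, n = 3 each), a ratio of 3.55. The log2 fold change was 1.78 (95% interval 1.70 to 1.86, adjusted p = 1.27e-10 from limma), and it ranked 44 among the 11726 tested genes. From 1761 to 1885 counts per PBS library and from 6505 to 6822 per PP library stood behind these values.

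*SEL1L*, which stabilizes the ligase and feeds it substrates, had an FPKM of 30.5, 30.03 and 29.7 with PBS and of 73.3, 72.1 and 74.4 with PP. Again no library of either treatment came near the other group. The mean rose from 30.1 ± 0.417 to 73.3 ± 1.12 (SD, n = 3 each), a ratio of 2.44 and a log2 fold change of 1.26 (95% interval 1.18 to 1.33, adjusted p = 6.35e-10 from limma). *SYVN1*, the ligase itself, moved less. Its FPKM was 23.7, 24.3 and 24.4 with PBS and 29.9, 31.7 and 28.1 with PP, so that the lowest PP library was still above the highest PBS library. The log2 fold change of *SYVN1* was 0.29 (95% interval 0.19 to 0.40, adjusted p = 0.000258 from limma). Leaving out any single library gave 0.25 to 0.34.

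Within a library, *SEL1L* therefore stood at 1.29, 1.24 and 1.22 times the FPKM of *SYVN1* with PBS and at 2.45, 2.28 and 2.65 times with PP. This ratio rose by 0.98 on the log2 scale, and the PP libraries did not overlap the PBS libraries. By an exact two-sided permutation test over the libraries its p was 0.1, the smallest that 3 against 3 allow. The adjusted p over the 6 ratios compared was 0.1 for each of them.

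The promoters of these genes are shown because XBP1 and ATF6 are known to act through the ER stress response elements ERSE (CCAAT, 9 bases of any kind, CCACG) and ERSE-II (ATTGG, 1 base of any kind, CCACG) and the related element UPRE, whose core was searched as TGACGTGG. The windows were those of RefSeq on GRCh38.p14, from 250 bases before to 50 after each gene's start, and 9 of the 10 members had one. On either strand, exact ERSE-II letters were found in 19 of 35116 windows (0.0541%), and among the members only in that of *HERPUD1*. Exact ERSE letters stood in 0.0769% and the UPRE core in 0.729% of all windows, and in none of the 9 member windows. With at most 1 fixed letter changed, a search chosen after seeing the data, ERSE was found in 3 of 9 member windows, those of *HERPUD1*, *SEL1L* and *SYVN1*, and in 1.55% of all windows. The same 3 windows held ERSE-II at this tolerance, against 1.23% of all windows, and in *SYVN1* the ERSE and ERSE-II matches overlapped. Capitals mark the fixed letters of the motif that match, and each is given on the strand of its gene:
HERPUD1 ERSE-II, chr16:56932016-56932044, plus strand, 117 to 107 bases before the start: cggacgccgATTGGgCCACGttgggagag
HERPUD1 ERSE with 1 letter changed, chr16:56932054-56932082, plus strand, 83 to 65 bases before the start: ctcagCCAATgggcggcagCCACagagcg
SEL1L ERSE with 1 letter changed, chr14:81534037-81534065, minus strand, 207 to 189 bases before the start: ggctaCCAATtagctggggCCAtGtccgt
SYVN1 ERSE with 1 letter changed, chr11:65134630-65134658, minus strand, 134 to 116 bases before the start: tgacaCCAtTgctatgggcCCACGtaggg
A match is a run of letters and not a measured binding site. The windows of the other 6 members, *SELENOS* and *EDEM1* among them, held no match at this tolerance. Some genes outside the members have several starts in the table and were counted once here. Listed genes without a window were left out of these counts. ERSE with at most 1 letter changed stood in a window of 10 of 20 ER chaperones, 0 of 37 other ERAD genes, 1 of 27 proteasome genes and 2 of 9 regulators of the unfolded protein response, against 1.89% of all 27305 genes. In the other ERAD genes ERSE-II at this tolerance stood in 1 of 37 genes, and the exact UPRE core in 4 of 45 windows (8.89%). Exact ERSE letters stood in 9 of 31 windows of ER chaperones (29.0%) and in 0 of 9 member windows. Exact ERSE-II letters stood in 2 of 31 chaperone windows (6.45%) and in 1 of 9 member windows (11.1%).

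Among the mannose-trimming enzymes, *EDEM1* and *EDEM3* rose and *EDEM2* did not pass the test. *EDEM1* had an FPKM of 10.9, 11.3 and 11.9 with PBS and of 19.7, 17.7 and 18.6 with PP, with no overlap between the groups. Its log2 fold change was 0.67 (95% interval 0.55 to 0.79, adjusted p = 1.26e-06 from limma), for a ratio of 1.64 between the means. *EDEM3* had an FPKM of 7.22, 7.30 and 6.61 with PBS and of 9.48, 8.90 and 9.39 with PP. It was thus above the PBS range in each PP library, with a log2 fold change of 0.35 (95% interval 0.23 to 0.47, adjusted p = 0.000193 from limma).

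*EDEM2*, known to carry out the initial trimming step, was the lowest of the members, with 102 to 126 counts per library. Its FPKM was 2.14, 1.85 and 1.99 with PBS and 1.80, 2.07 and 2.04 with PP. The groups overlapped, and the log2 fold change was -0.01 (95% interval -0.17 to 0.15, adjusted p = 0.903 from limma). In RefSeq (GRCh38.p14) the whole of *EDEM2*, on chromosome 20 from 35115364 to 35147336, lies within the readthrough gene *MMP24-AS1-EDEM2*. The deposited table lists that gene separately, at 0.447 to 0.956 FPKM with PBS and 0.504 to 0.965 with PP. The counts recovered for all 17177 genes were whole numbers, not fractions of a fragment. The level of *EDEM2*, and its place as the lowest member, is uncertain to the extent that shared fragments were left uncounted or given to the other gene. This was not tested.

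Between paralogs, the FPKM of *EDEM1* was 1.62 ± 0.157 times that of *EDEM3* with PBS and 2.02 ± 0.0534 times with PP (SD, n = 3 libraries each). Against *EDEM2* the ratio of *EDEM1* was 5.09, 6.13 and 5.98 with PBS and 10.96, 8.56 and 9.12 with PP. The PP libraries were above the PBS libraries for both ratios (exact permutation p = 0.1 each, the smallest possible), and the second carries the uncertainty of *EDEM2*.

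**Figure D2:**
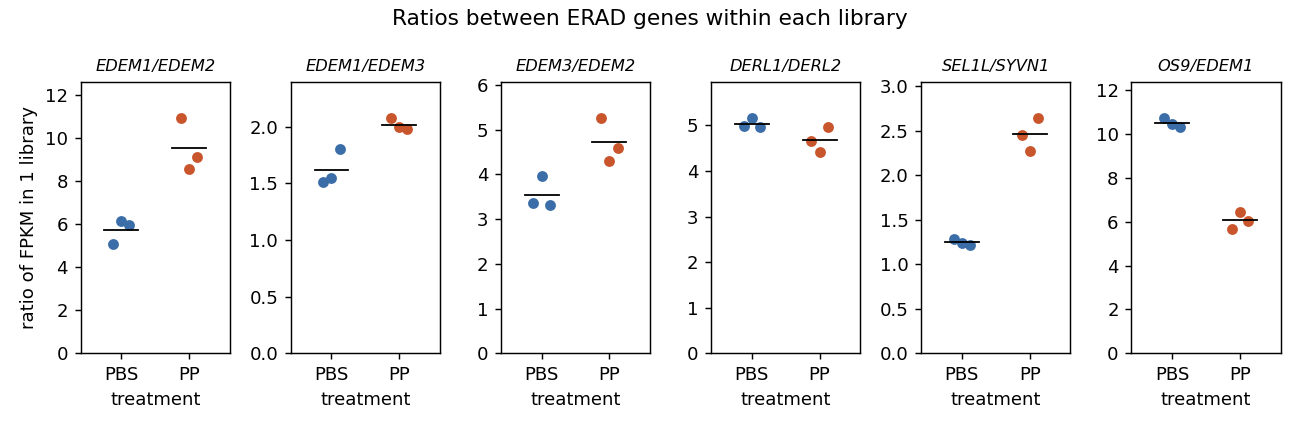
Ratio of FPKM between 2 ERAD genes in each library of NCI-H660 cells, on linear axes from 0; points are the 3 libraries of each treatment and black lines are their means. *SEL1L/SYVN1* rose from 1.25 to 2.46, while *DERL1/DERL2* went from 5.04 to 4.68.

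*OS9*, the lectin, was the most abundant member with both treatments. Its FPKM was 117.2, 118.4 and 122.9 with PBS and 112.1, 114.5 and 112.2 with PP, so that all PP libraries were just below the PBS libraries. The means were 119.5 ± 3.02 and 112.9 ± 1.33 (SD, n = 3 each), and the log2 fold change was -0.08 (95% interval -0.15 to -0.01, adjusted p = 0.0438 from limma). This call was lost without PBS replicate 2, PBS replicate 3, PP replicate 1, PP replicate 2 or PP replicate 3 (adjusted p = 0.0834, 0.177, 0.089, 0.0597 and 0.0798, limma). Only when PBS replicate 1 was the library left out did it hold. The level of *OS9* stood at 10.7, 10.5 and 10.3 times that of *EDEM1* with PBS and at 5.69, 6.45 and 6.03 times with PP.

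The derlins form the membrane part of the path. *DERL1* had an FPKM of 78.9, 77.5 and 77.3 with PBS and of 80.3, 76.4 and 81.9 with PP, and the groups overlapped. Its log2 fold change was 0.03 (95% interval -0.05 to 0.11, adjusted p = 0.485 from limma), from 7416 to 8755 counts per library. *DERL2* had an FPKM of 15.8, 14.99 and 15.6 with PBS and of 17.2, 17.3 and 16.5 with PP. These groups did not overlap, and the log2 fold change was 0.13 (95% interval 0.03 to 0.23, adjusted p = 0.0196 from limma). Without PBS replicate 2, PP replicate 1 or PP replicate 2 the call of *DERL2* was lost (adjusted p = 0.0797, 0.0501 and 0.0659, limma).

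*SELENOS*, the selenoprotein that links derlins to p97, rose clearly. The FPKM was 16.1, 17.1 and 17.5 with PBS and 34.6, 32.0 and 31.6 with PP. Every PP library was far above the PBS range, and the mean rose from 16.9 ± 0.713 to 32.7 ± 1.61 (SD, n = 3 each). Its log2 fold change of 0.91 (95% interval 0.81 to 1.02, adjusted p = 7.89e-08 from limma) was just under the value of 1 that the cutoff of the methods asks for.

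In RefSeq, *DERL2* overlaps *MIS12* by 444 bases and *SYVN1* overlaps *MRPL49* by 93 bases. Both neighbours were also higher with PP. *MIS12* was at 10.1 to 11.1 FPKM with PBS and 13.6 to 15.4 with PP, and *MRPL49* at 39.7 to 41.0 and 51.1 to 53.3. The study's methods name no kit that keeps strand for these RNA-seq libraries. Whether the counting used strand is not given in the sources used here. The part of these neighbours in the values of *DERL2* and *SYVN1* was not tested.

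**Figure D3:**
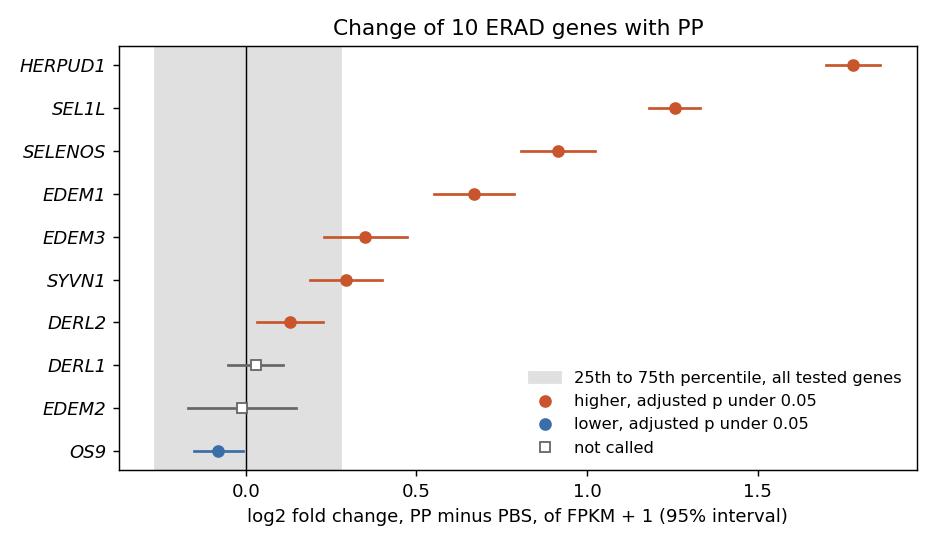
Log2 fold change (PP minus PBS, of FPKM + 1) of the 10 ERAD genes with 95% intervals from limma; filled points passed an adjusted p under 0.05, and the grey band holds the middle of all tested genes (25th percentile -0.26, 75th percentile 0.28). *HERPUD1*, *SEL1L*, *SELENOS* and *EDEM1* lie far to the right of the band, and *DERL2*, *DERL1*, *EDEM2* and *OS9* lie inside it.

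The order of the levels changed with these rises. With PBS it ran *OS9*, *DERL1*, *SEL1L*, *SYVN1*, *HERPUD1*, *SELENOS*, *DERL2*, *EDEM1*, *EDEM3* and *EDEM2*, and no neighbours overlapped in their library ranges. With PP it ran *OS9*, *DERL1*, *HERPUD1*, *SEL1L*, *SELENOS*, *SYVN1*, *EDEM1*, *DERL2*, *EDEM3* and *EDEM2*. There the ranges of *HERPUD1* and *SEL1L* overlapped, and so did those of *SELENOS* and *SYVN1*. The summed FPKM of the members was 323.9, 323.8 and 328.5 in the PBS libraries and 453.6, 448.2 and 447.7 in the PP libraries. *OS9* gave 36.7% of the sum of the means with PBS and 25.1% with PP, whereas *HERPUD1* gave 6.45% and 16.6%.

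Other ERAD genes were then read from the same fit, from a list of 51 genes of which 50 were tested. By limma (adjusted p under 0.05), 27 of them rose (54%) and 12 fell (24%) with PP, against 38.1% and 34.4% of all tested genes. Their median log2 fold change was 0.12. The highest was *DNAJB9*, a co-chaperone that holds misfolded proteins for ERAD, which rose from 4.92 ± 0.803 to 23.9 ± 1.43 FPKM (SD, n = 3 each; log2 fold change 2.08, adjusted p = 1.96e-08 from limma). It was followed by *UBE2J1*, a ubiquitin-conjugating enzyme that works with SYVN1 (0.89), and *ERLIN1*, which binds the ligase RNF170 in the ER membrane (0.88). The lowest were *JKAMP* at -0.60, the ATPase *VCP* at -0.57 and *FOXRED2*, a lumenal flavoprotein, at -0.43, all 3 with an adjusted p under 0.05 from limma.

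By role, all 4 ubiquitin-conjugating enzymes and their anchor rose, with *UBE2G2* at 0.57, *UBE2J2* at 0.12 and *AUP1* at 0.11 on the log2 scale beside *UBE2J1*. The call of *UBE2J2* held in 6 of 13 alternatives and was lost without any 1 library other than PP replicate 1 (adjusted p from 0.0558 to 0.101, limma). That of *AUP1* held in 11 and was lost without PBS replicate 2 or PP replicate 1 (adjusted p = 0.0927 and 0.0548, limma). Among 7 genes of p97 and its cofactors, 2 rose and 4 fell. The level of *VCP* was 96.2 ± 3.81 FPKM with PBS and 64.6 ± 3.40 with PP (SD, n = 3 each), and its cofactor *NPLOC4* fell by 0.21 on the log2 scale. Of 10 tested genes of cytosolic deglycosylation and shuttling, 8 rose and 1 fell. Ubiquitin ligases other than SYVN1 were divided, with 3 of 7 higher and 1 lower. Membrane partners had 5 of 11 higher and 3 lower, lumenal recognition and reduction 3 of 6 higher and 2 lower, and deubiquitinases 2 of 5 higher and 1 lower. Of all tested genes, 38.1% were higher and 34.4% lower, and differences between these roles were not tested.

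Of the paralogs and partners of the members, 4 that rose are given here, chosen after their values were seen. *ERLEC1*, the other lectin of the pathway, rose from 9.88 ± 0.624 to 13.5 ± 0.377 FPKM (SD, n = 3 each; log2 fold change 0.42, adjusted p = 5.19e-05 from limma), while *OS9* was slightly lower. *DERL3*, a derlin, was at 3.25 ± 0.391 with PBS and 4.85 ± 0.636 with PP (log2 fold change 0.46, adjusted p = 0.00123 from limma). *HERPUD2* rose by 0.36 and *TXNDC11*, the redox partner of EDEM2, by 0.58 on the log2 scale. Other membrane partners fell, such as *TMUB1* by 0.28 and *UBAC2* by 0.25 on the log2 scale. Whether these changes differ from those of the members was not tested.

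**Figure D4:**
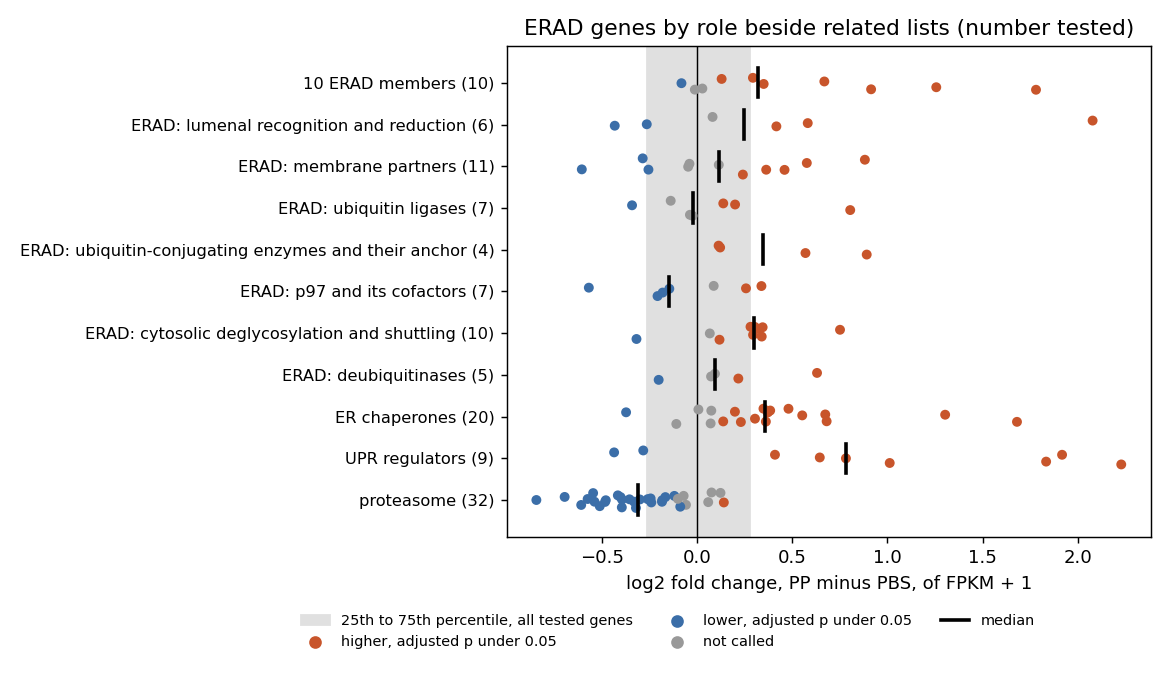
Log2 fold change (PP minus PBS, of FPKM + 1) of the tested genes of each list, 1 point per gene, with the list's median as a black bar and the 25th to 75th percentile of all tested genes as a grey band; vertical scatter is only for legibility. The 10 members have a median of 0.32, the ER chaperones 0.36, the regulators 0.78 and the proteasome genes -0.31.

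Of the related lists, the ER chaperones had 15 of 20 tested genes higher and 1 lower, against 38.1% and 34.4% of all tested genes. Their median was 0.36. *HSPA5*, the main chaperone of the ER, led at 1.68, followed by *HYOU1* at 1.30 and *TXNDC5* at 0.68, whereas *CALR*, a lectin chaperone, fell by 0.37 on the log2 scale. The smallest rises that passed the test were those of the disulfide isomerase *PDIA4* (0.14) and the oxidase *ERO1A* (0.20). The call of *PDIA4* was lost without PBS replicate 2 (log2 fold change 0.09, adjusted p = 0.11, limma), PP replicate 2 (adjusted p = 0.0609) or PP replicate 3 (adjusted p = 0.0741). The proteasome, which destroys what ERAD delivers, went the other way, with 25 of 32 subunits lower, 1 higher (*PSMD6*, 0.14) and a median of -0.31. Its lowest were *PSMB3* at -0.84, *PSMA2* at -0.69 and *PSMB2* at -0.61. These counts are given beside those of the members as a description, and the difference between lists was not tested.

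Of the 9 sensors, proteases and transcription factors of the unfolded protein response, 7 rose and 2 fell. Over all tested genes 38.1% rose and 34.4% fell. *ERN1* rose by 2.23 on the log2 scale, from 5.15 ± 0.0771 to 27.8 ± 0.953 FPKM (SD, n = 3 each; adjusted p = 1.27e-10 from limma). *XBP1* rose by 1.83, from 42.2 ± 1.54 to 152.7 ± 2.34 FPKM, and *DDIT3*, a stress transcription factor, by 1.92. *EIF2AK3* (PERK), the third sensor, rose by 1.01, *ATF6* by 0.78, *ATF4* by 0.65 and the protease *MBTPS2* by 0.41. *ATF6B* fell by 0.43 and *MBTPS1*, which cleaves ATF6, by 0.28 on the log2 scale. Gene-level FPKM does not show the spliced form of *XBP1* or the cleaved form of ATF6, which were not analysed here.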

How the data were processed

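RNA-seq of NCI-H660 cells (3 libraries with PBS and 3 with PP) was analysed from the FPKM that the authors deposited per gene symbol. Sources differ on the steps before: the submitters' processing notes name fastp, HISAT2, HTSeq and GRCh38, whereas the methods name Bowtie, hg19, RSEM, Cufflinks and HTSeq. They also differ on replicates, with duplicates of each group in the methods and 3 libraries per group in the labels. The table holds no coordinates, and those printed are from RefSeq (GRCh38.p14). The 11726 genes whose FPKM averaged 1 or more were log2-transformed after a pseudocount of 1 was added. They were fitted in R 4.3.3 with limma 3.58.1 (eBayes with an intensity trend, no covariates), with Benjamini-Hochberg adjustment over all of them. The pseudocount understates changes of low genes. Whole counts were recovered from the FPKM steps (tolerance 0.01 of a count) for all 17177 genes in Python 3.11.15. Library pairs of the same treatment differed by a chi-square per degree of freedom of 3.36 to 6.91, more than counting noise gives. Of these steps, only the limma fit was tested on simulated data.

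The members and lists were chosen with earlier results of these data known. Named genes are all members, all regulators of the unfolded protein response, the 3 highest and 3 lowest called genes of each other list where the text gives them, the 5 genes nearest to *HERPUD1*, and genes of the label check. Some genes that this rule takes are not reported here. *UBE2G2*, *UBE2J2*, *AUP1*, *NPLOC4*, *ERLEC1*, *DERL3*, *HERPUD2*, *TXNDC11*, *TMUB1*, *UBAC2* and the genes that overlap members were named after their values were seen. The alternatives changed 1 choice at a time (pseudocount, filter, median-ratio scaling, eBayes trend, replicate block, left-out library, limma-voom on the recovered counts).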

Additional observations from a re-analysis of the deposited data

How the results depend on the processing

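Higher calls of *HERPUD1*, *SEL1L*, *SELENOS*, *EDEM1*, *EDEM3* and *SYVN1* held under all 13 alternatives run. The lower call of *OS9* was lost without the eBayes trend, where 0 members were lower (adjusted p = 0.109, limma), and 0 to 1 members were lower with each library left out; the cause was not tested. The log2 fold change of *EDEM2* ran from -0.0459 to 0.032 with each library left out (0.0253 without PBS replicate 1 and 0.032 without PP replicate 1), with no call, and at a mean FPKM of at least 5 it was not tested. At the cutoff of the methods, 531 genes were lower with a pseudocount of 0.1, and 397 were higher and 559 lower with limma-voom on recovered counts, against 263 and 344. Without the trend 2 proteasome genes were higher, and 1 to 2 were with each library left out, while 1 to 2 chaperones were lower. Same-numbered libraries did not pair, with correlations of their deviations of -0.21, -0.014 and -0.13. A fit with a replicate block called 4260 genes higher and 3878 lower (4464 and 4032 without it), and 7 and 0 of the members. The median-ratio size factors of the treatments differed by -0.015 (mean log2, PBS minus PP). *EDEM2* had the fewest counts of the members, 102 to 126 per library.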

Other observations

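Among the genes whose values, each centred on its own PBS mean, lay nearest to those of *HERPUD1* over the 6 libraries were *XBP1*, *CLIP4*, *HSPA5* and *ERICH2*, with Euclidean distances of 0.117, 0.188, 0.192 and 0.196 on the log2(FPKM + 1) scale. *XBP1* is a transcription factor and *HSPA5* a chaperone of the unfolded protein response. *HSPA5* was at 113.6 ± 2.65 FPKM with PBS and 366.3 ± 2.38 with PP (SD, n = 3 each), a log2 fold change of 1.68 against 1.78 for *HERPUD1*. *CLIP4* and *ERICH2* were low with PBS, at 1.23 and 1.20 FPKM, and the pseudocount weighs on their values. The likeness is a description over 6 libraries that share 1 treatment contrast.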
